A study of Mus musculus with 31 samples.

Results

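The insulin-like growth factor (IGF) genes of the mouse hippocampus described here are 9 in number: the ligands Igf1 and Igf2, the receptor Igf2r, and the binding proteins Igfbp2, Igfbp3, Igfbp4, Igfbp5, Igfbp6 and Igfbp7. They were chosen by name, each name pointed to 1 locus, and all 9 were among the 17139 tested loci of 27094 in the table, a locus being tested when its expression exceeded 1 FPKM (fragments per kilobase of transcript, scaled to the mapped fragments of each library) in at least 10 mice. Mice of the C57BLKS/J strain, 3 months old by their labels, were compared in 3 groups. The 10 db/db-IF mice were db/db mice deprived of food on alternate days (intermittent fasting, IF), the 10 db/db mice were diabetic animals fed freely, and the 11 db/m mice were heterozygous controls, also fed freely. All were male and carried the db allele of the leptin receptor gene Lepr on at least one chromosome, so that no group lacked it, and a fasted db/m group was not analysed here. Whole hippocampi were sequenced, 1 library per mouse. The group sizes follow the sample titles. A figure legend of the paper instead counts 11 fasted and 9 freely fed diabetic mice, so the sources differ on the group of 1 mouse. Which mouse this would be is not known, and moving a mouse between groups was not tested.

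IGF ligands are small secreted hormones that act mainly through the tyrosine kinase receptor Igf1r and the insulin receptor substrates, and promote growth and survival of neurons and glia. The IGF-binding proteins hold the ligands outside the cell, lengthen their life and either block or deliver them, and proteases such as Pappa and Htra1 release the ligand by cutting them. Igf2r has no kinase and carries bound Igf2 to the lysosome. In the adult brain Igf2 and Igfbp2 are known products of the choroid plexus and the leptomeninges, tissues that border the hippocampus.

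On chromosome 1 (GRCm38.p6) the Igfbp2 gene (72824480 to 72852474, plus strand) and the Igfbp5 gene (72858065 to 72874865, minus strand) lie tail to tail with 5590 bases between them, and the group means of their transcripts differed in opposite directions between db/db-IF and db/db mice. In a fit that also held each mouse's slope on transcript length (described below), both were higher in db/db-IF mice and neither passed. With a length trend removed from each mouse, they again differed in direction, and Igfbp2 alone passed. The promoter windows of both genes, 250 bases before to 50 after the RefSeq start, are shown for this pair of neighbours. Capitals mark the GC box GGGCGG on either strand, and the other letters searched were TATAAA and CCAAT, also on both strands.
Igfbp2, chr1:72824230-72824529, plus strand: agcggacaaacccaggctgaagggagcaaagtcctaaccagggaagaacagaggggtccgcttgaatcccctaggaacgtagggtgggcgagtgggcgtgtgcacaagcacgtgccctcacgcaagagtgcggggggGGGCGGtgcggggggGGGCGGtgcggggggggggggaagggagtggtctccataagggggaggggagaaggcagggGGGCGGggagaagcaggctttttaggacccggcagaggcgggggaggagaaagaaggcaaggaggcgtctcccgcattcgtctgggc
Igfbp5, chr1:72874816-72875115, minus strand: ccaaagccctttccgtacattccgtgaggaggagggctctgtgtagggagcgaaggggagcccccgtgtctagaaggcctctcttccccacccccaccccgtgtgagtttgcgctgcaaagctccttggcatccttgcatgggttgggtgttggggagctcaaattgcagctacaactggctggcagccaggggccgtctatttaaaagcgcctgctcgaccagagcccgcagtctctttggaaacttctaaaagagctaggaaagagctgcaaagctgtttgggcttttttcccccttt
The Igfbp2 window held 3 GC boxes, 18 CG pairs and 67.0% G and C, and the Igfbp5 window held 0 GC boxes, 10 CG pairs and 56.3% G and C, with no TATAAA and no CCAAT in either. Of 32851 RefSeq promoter windows of this length, 35.7% held GGGCGG, 13.6% TATAAA and 37.4% CCAAT, and the median window had 7 CG pairs. A second RefSeq start of Igfbp2 had 0 GC boxes in its window. These letters are a description of the windows and carry no information on which factors were bound.

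The fasted mice stood apart from all others in how their levels ran with transcript length. For each mouse, the log2 level of a locus was taken as its deviation from the mean of that locus over the 31 mice. The slope of these deviations on log2 transcript length over 12298 loci was -0.24 to -0.05 (median -0.07) in db/db-IF mice. It was -0.04 to 0.07 (median 0.05) in db/db and 0.0011 to 0.08 (median 0.05) in db/m mice. The slopes are thus relative to the average of the 31 mice. On that scale long transcripts read low in every db/db-IF library, mouse 7 the most. Since no db/db-IF mouse overlapped the others, this slope and fasting cannot be told apart. Igf2r, Igf1 and Igfbp5 have long transcripts (8887, 7052 and 6006 bases at the longest) and Igfbp2, Igfbp6 and Igfbp7 short ones (1307, 1112 and 1200 bases). The differences of db/db-IF mice are therefore given also from a fit that holds each mouse's slope, and from values with a smooth length trend taken out of each mouse.

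FPKM is scaled to length, but the slope differed between groups, so the order of genes of unlike length is a description of each group on its own. Igfbp3, the main carrier of IGF in blood, was the highest member in all 3 groups (253 ± 45.9 FPKM in db/db-IF, 215 ± 23.1 in db/db and 197 ± 24.2 in db/m mice, mean ± SD, n = 10, 10 and 11). Igfbp4, Igfbp2 and Igfbp5 came next, in an order that differed between groups, and neighbours among these 3 overlapped. Igfbp3 overlapped the next gene too, but barely in db/db mice, where its lowest value was 184.951 FPKM and the highest Igfbp4 value 184.952 FPKM. Igfbp5 stood clear of Igf2r in every group, its lowest mouse at 60.95 FPKM among db/db-IF mice against a highest Igf2r value of 37.7 FPKM there. Igf2r and Igfbp7 overlapped in db/db-IF mice but not in db/db or db/m mice. The ligands and Igfbp6 were the lowest members in every group, each averaging below 8 FPKM, and Igf1 and Igf2 overlapped in db/db-IF and db/m mice but not in db/db mice.

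**Figure D1:**
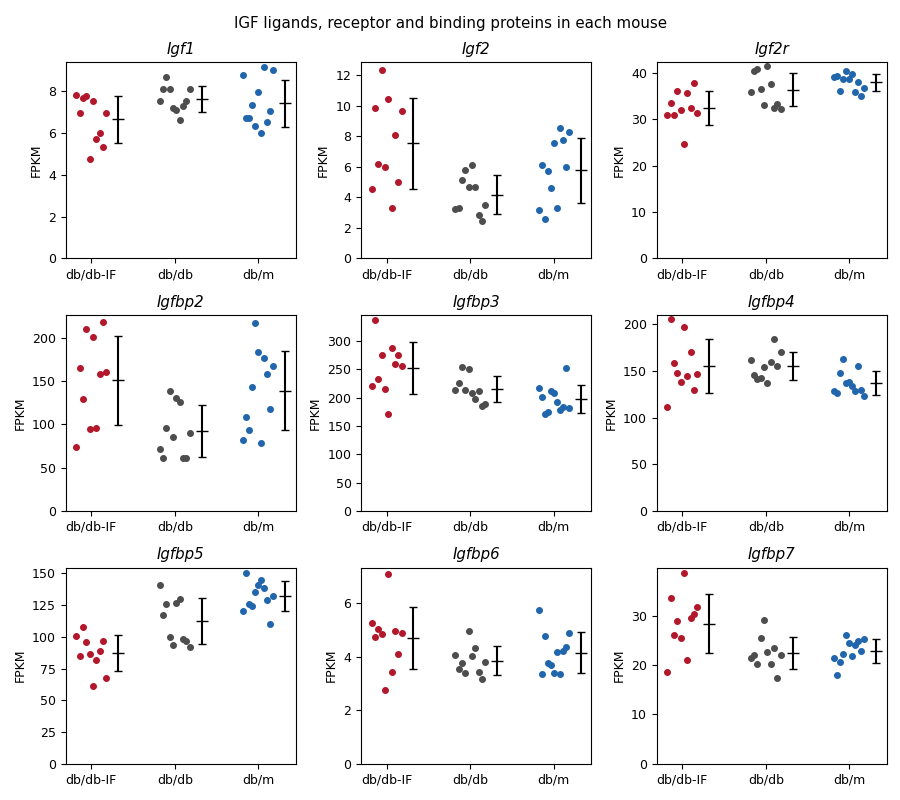
FPKM of the 9 IGF genes in each mouse, 1 panel per gene with its own axis from 0, in db/db-IF (red, n = 10), db/db (grey, n = 10) and db/m mice (blue, n = 11); the black bar is the mean ± SD. All 10 db/db-IF mice lie below all 11 db/m mice for Igfbp5, and for every other gene the groups overlap.

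The question of what IF did to these genes in diabetic mice was addressed by comparing db/db-IF with db/db mice. Of the 9 genes, 6 changed: Igf2, Igfbp2, Igfbp3 and Igfbp7 were higher and Igf2r and Igfbp5 lower in db/db-IF mice (limma on log2(FPKM + 1), 3 group means in one fit, Benjamini-Hochberg adjusted p under 0.05 over all tested loci). The same test called 51.1% of all tested loci, 23.7% higher and 27.4% lower, so that 6 of 9 was not far from the rate of the whole table. With the slope on transcript length in the fit, 0 of the 9 genes passed, and only 328 of all 17139 tested loci did. Igf2r, Igfbp5, Igfbp6 and Igfbp7 turned in direction in that fit. In the fit of group means alone, an unadjusted p under 0.05 was reached by 8 of the 9 and by 56.9% of all tested loci. The median difference of the 9 genes was 0.21 on the log2 scale, against -0.02 over all tested loci. None of the 9 separated the groups completely, while 5.52% of all tested loci did. In a bulk tissue, fewer cells of a type and less RNA per cell cannot be told apart.

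Igf2, the fetal growth factor that in the adult brain is linked to memory, was the ligand that changed. Its values were 3.32 (lowest), 7.14 (median) and 12.3 FPKM (highest) in db/db-IF mice, and 2.44, 4.11 and 6.10 FPKM in db/db mice. As many as 6 of the 10 db/db-IF mice exceeded the highest db/db mouse, although the lower part of the range was shared. On the log2 scale Igf2 differed by 0.68 ± 0.20 (SE, adjusted p = 0.0066, limma), and its mean FPKM was 1.81-fold higher in db/db-IF mice. The difference was 0.26 with the slope on transcript length in the fit (adjusted p = 0.75) and 0.46 with the level of choroid plexus markers in it (adjusted p = 0.020). Igf2 lies on chromosome 7 (142650768 to 142666816, minus strand).

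Igf1 (chromosome 10, 87858265 to 87937047, plus strand), which tissues make in response to growth hormone, did not pass. It ran over 4.75, 6.94 and 7.80 FPKM (lowest, median, highest) in db/db-IF mice and over 6.63, 7.53 and 8.66 FPKM in db/db mice. Of the 10 db/db-IF mice, 4 were below every db/db mouse and the others lay within the db/db range. Its log2 difference was -0.19, with a 95% interval of -0.35 to -0.02 and an adjusted p of 0.052, which the removal of single mice moved between 0.033 and 0.12 (under 0.05 without db/m mouse 1, 7, 8 or 11, db/db mouse 7, or db/db-IF mouse 1, 4, 5 or 7). With the slope on transcript length in the fit the Igf1 difference stayed negative and did not pass. It turned to 0.08 (adjusted p = 0.53) with the length trend removed. Whether sequence was read by strand is not given in the sources used here, so reads of Igf1, Igf2 and Igf2r cannot be told apart from those of antisense transcripts at these loci.

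Igf2r (chromosome 17, 12682406 to 12769706, minus strand), the lysosomal sink for Igf2, was lower in the fit of group means, a direction that turned when transcript length was taken into account. It had 24.6, 32.3 and 37.7 FPKM (lowest, median, highest) in db/db-IF mice and 32.1, 36.3 and 41.4 FPKM in db/db mice. Of the fasted group, 5 of 10 mice lay below the whole db/db range. This gave a log2 difference of -0.16 ± 0.06 (SE, adjusted p = 0.023, limma). It rested in part on db/db-IF mouse 7, without which it was -0.12 (adjusted p = 0.051), and it did not pass with quantile normalization (-0.08, adjusted p = 0.14) or in a fit of these groups alone (adjusted p = 0.061). With the slope on transcript length in the fit it turned to 0.15 (adjusted p = 0.22), and with the length trend removed to 0.13, passing in the other direction (adjusted p = 0.0034).

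Among the binding proteins, Igfbp2, the main IGF carrier of cerebrospinal fluid, had the largest log2 difference, close to that of Igf2. Its values were 74.2, 159 and 218 FPKM (lowest, median, highest) in db/db-IF mice and 60.7, 87.3 and 139 FPKM in db/db mice. A total of 6 db/db-IF mice were above every db/db mouse, and 4 db/db mice were below every db/db-IF mouse. The log2 difference was 0.69 ± 0.22 (SE, adjusted p = 0.0090, limma), or 63.7% more on the mean FPKM. The choroid plexus markers differed in the same direction, by a median of 0.62 over 9 genes, and with their level in the fit, an alternative chosen after seeing the data, the difference of Igfbp2 was 0.38 (adjusted p = 0.0036). With the slope on transcript length in the fit it was 0.40 and did not pass (adjusted p = 0.61). Igfbp2 was also among the most variable members within a group, with an SD of 51.0 FPKM in db/db-IF mice and 30.1 FPKM in db/db mice.

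Igfbp5, an IGFBP that binds extracellular matrix, went the other way. Its values were 60.95, 87.5 and 108 FPKM (lowest, median, highest) in db/db-IF mice and 91.6, 109 and 141 FPKM in db/db mice. All 10 db/db-IF mice were below the db/db median and 6 were below every db/db mouse. Igfbp5 differed by -0.36 ± 0.09 on the log2 scale (SE, adjusted p = 0.0016, limma), and leaving out each mouse in turn kept it between -0.40 and -0.31. It turned to 0.13 (adjusted p = 0.54) with the slope on transcript length in the fit, and was -0.13 (adjusted p = 0.13) with the length trend removed.

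Igfbp7 (chromosome 5, 77349240 to 77408045, minus strand), which binds IGF weakly and is a matrix protein of vessels, was higher, with 18.6, 29.2 and 38.7 FPKM (lowest, median, highest) in db/db-IF mice and 17.5, 22.1 and 29.1 FPKM in db/db mice. Among db/db-IF mice, 5 exceeded all db/db mice. The log2 difference was 0.31 ± 0.10 (SE, adjusted p = 0.0088, limma). It turned to -0.09 (adjusted p = 0.80) with the slope on transcript length in the fit, was 0.19 (adjusted p = 0.071) with the length trend removed, and was 0.15 (adjusted p = 0.44) in the libraries of lower base quality alone.

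Igfbp3 (chromosome 11, 7206086 to 7215498, minus strand) was higher by a smaller margin. It had 171, 258 and 338 FPKM (lowest, median, highest) in db/db-IF mice and 185, 213 and 254 FPKM in db/db mice. Of the db/db-IF mice, 6 were above the db/db range and 1, mouse 7, was below it. Its log2 difference was 0.22 ± 0.09 (SE, adjusted p = 0.038, limma), and this call was lost on leaving out any 1 of 11 mice (db/db mice 1, 6, 7, 9 and 10 and db/db-IF mice 2, 5, 8, 9, 10 and 11), when the difference was 0.17 to 0.22 with an adjusted p of up to 0.089. A fit of these groups alone gave an adjusted p of 0.062, and the slope on transcript length moved the difference to 0.45 (adjusted p = 0.077).

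Igfbp4 (chromosome 11, 99040005 to 99052655, plus strand), an inhibitory IGFBP that Pappa cuts, averaged 155 ± 29.1 FPKM in db/db-IF mice and 155 ± 14.7 FPKM in db/db mice (SD, n = 10 each). The difference was -0.02 on the log2 scale with a 95% interval of -0.19 to 0.15 (adjusted p = 0.86), and its sign turned under 2 other scalings and with the length trend removed (0.10, adjusted p = 0.39). Igfbp6 (chromosome 15, 102144186 to 102149512, plus strand), which prefers Igf2 as its ligand, averaged 4.71 ± 1.17 FPKM in db/db-IF mice and 3.86 ± 0.53 FPKM in db/db mice. Its log2 difference of 0.21 had an interval of 0.01 to 0.42 and did not pass (adjusted p = 0.073), and it was -0.02 with the slope on transcript length, though it passed without db/db mouse 5 (0.042) or db/db-IF mouse 6 (0.012) or 8 (0.035).

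The second comparison, db/db-IF with db/m mice, set the fasted diabetic animals beside the controls and shares the db/db-IF mice with the first. Of the 9 genes, 4 changed, Igfbp3 and Igfbp7 higher and Igf2r and Igfbp5 lower in db/db-IF mice, and the same 4 had an unadjusted p under 0.05. Of all tested loci, 55.6% were called (26.2% higher, 29.4% lower) and 60.4% had such an unadjusted p. The median over the 9 genes was 0.13 and over all tested loci -0.04 on the log2 scale. With the slope on transcript length in the fit, Igfbp3 alone passed (0.60, adjusted p = 0.021), and 451 of all 17139 tested loci did.

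Igfbp5 had the largest difference of the 9 genes here. Values in db/m mice were 110.03, 132 and 150.0 FPKM (lowest, median, highest), so the highest db/db-IF mouse at 108 FPKM was below the lowest db/m mouse. The log2 difference was -0.61 ± 0.09 (SE, adjusted p = 2.6e-06, limma), 34.0% less on the mean FPKM. With the slope on transcript length in the fit it was -0.07 and did not pass (adjusted p = 0.76), and with the length trend removed it was -0.35 (adjusted p = 8.4e-05). On the FPKM values Igfbp5 was the 1 member whose groups did not overlap, as was the case for 9.41% of all tested loci.

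Igf2r was below the db/m median in all 10 db/db-IF mice, and 7 of them were below every db/m mouse, whose values were 35.0, 38.6 and 40.4 FPKM (lowest, median, highest). This was a log2 difference of -0.22 ± 0.06 (SE, adjusted p = 0.0014), which turned to 0.11 (adjusted p = 0.41) with the slope on transcript length and to 0.09 (adjusted p = 0.031), passing in the other direction, with the length trend removed. Igfbp3 in db/m mice had 171, 193 and 253 FPKM (lowest, median, highest), and 6 db/db-IF mice exceeded that range. Its log2 difference was 0.34 ± 0.09 (SE, adjusted p = 0.0014). Igfbp7 had 17.99, 22.9 and 26.2 FPKM (lowest, median, highest) in db/m mice, was exceeded by 6 db/db-IF mice, and differed by 0.28 ± 0.10 (SE, adjusted p = 0.014). Igfbp7 turned to -0.16 with the slope and did not pass with the trend removed (0.16, adjusted p = 0.14).

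The remaining genes did not pass between db/db-IF and db/m mice. Igf2 averaged 7.54 ± 2.96 FPKM in db/db-IF mice and 5.78 ± 2.14 FPKM in db/m mice, a log2 difference of 0.32 with an interval of -0.08 to 0.73 (adjusted p = 0.17). Igfbp2 averaged 151 ± 51.0 FPKM in db/db-IF mice and 139 ± 45.7 FPKM in db/m mice (0.11, interval -0.32 to 0.54, adjusted p = 0.68). The interval of Igf2 includes the 0.68 found between db/db-IF and db/db mice. Igf1, Igfbp4 and Igfbp6 differed by -0.14, 0.16 and 0.13, with adjusted p-values of 0.12, 0.096 and 0.25, and Igfbp4 passed without db/db-IF mouse 1 (0.21, adjusted p = 0.018). With the slope on transcript length, Igf2 (-0.13), Igfbp2 (-0.20), Igfbp4 (-0.17) and Igfbp6 (-0.12) turned in direction, and with the trend removed Igf1 did (0.15), as did Igfbp6.

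The third comparison, db/db with db/m mice, addressed diabetes without fasting and shares its mice with the other 2. None of the 9 genes passed in limma's fit of 3 groups (0 of 9, against 5.75% of all tested loci, 2.96% higher and 2.79% lower). An unadjusted p under 0.05 was reached by 3 of the 9 and by 19.9% of all tested loci, and ordinary least squares with a term for library size passed 0 of the 9. Those 3 were Igfbp2, Igfbp5 and Igfbp4.

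Igfbp2 had 60.7, 87.3 and 139 FPKM (lowest, median, highest) in db/db mice and 78.9, 143 and 217 FPKM in db/m mice. All 10 db/db mice were below the db/m median, and 6 db/m mice were above every db/db mouse. The log2 difference was -0.58 ± 0.21 (SE, 95% interval -1.01 to -0.15, adjusted p = 0.10), and -0.33, passing (adjusted p = 0.046), with the level of choroid plexus markers in the fit, whose own median differed by -0.42. Igfbp5 differed by -0.25 ± 0.09 (adjusted p = 0.10), 112 ± 18.1 FPKM in db/db mice and 132 ± 11.6 FPKM in db/m mice, with 5 db/db mice below the db/m range. Igfbp4 averaged 155 ± 14.7 FPKM in db/db mice and 138 ± 12.8 FPKM in db/m mice (0.17 ± 0.08, adjusted p = 0.21), and all 10 db/db mice were above the db/m median. A fit of db/db and db/m mice alone passed Igfbp4 (adjusted p = 0.049) and Igfbp5 (adjusted p = 0.046).

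Igf2 averaged 4.18 ± 1.27 FPKM in db/db mice and 5.78 ± 2.14 FPKM in db/m mice (-0.35, interval -0.76 to 0.05, adjusted p = 0.33). The other 5 genes differed by -0.08 to 0.12 on the log2 scale, with adjusted p-values of 0.46 or more. For Igfbp2, Igf2, Igfbp6 and Igfbp7 the db/db mean was the lowest of the 3 group means, though for Igfbp7 it was close to that of db/m mice (22.4 against 22.9 FPKM), and for Igfbp5 and Igf2r the means were lowest in db/db-IF, middle in db/db and highest in db/m mice.

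**Figure D2:**
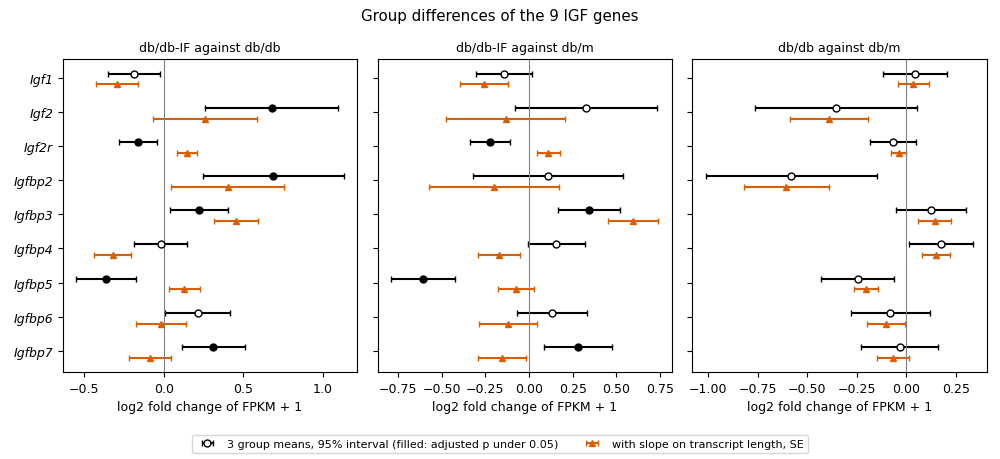
Log2 difference of FPKM + 1 for each of the 9 genes in the 3 comparisons: circles with 95% intervals from the fit of 3 group means (filled where the adjusted p was under 0.05), and orange triangles with SE from a fit that also holds each mouse's slope on transcript length. With the slope, Igf2r and Igfbp5 lie to the right of their circles in both comparisons of db/db-IF mice, Igfbp7 lies to the left of 0, and Igfbp3 moves further to the right.

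The make-up of the IGFBP pool can be given as a share of the summed FPKM of the 6 binding proteins in each mouse. Igfbp5 made up 13.1% ± 3.06 in db/db-IF, 18.6% ± 2.52 in db/db and 21.0% ± 2.40 in db/m mice (SD, n = 10, 10 and 11). Igfbp2 made up 21.8% ± 5.67 in db/db-IF, 15.2% ± 4.35 in db/db and 21.6% ± 5.60 in db/m mice. Igfbp3 was on average the largest share, at 37.4% ± 5.24 in db/db-IF, 35.8% ± 3.14 in db/db and 31.3% ± 4.16 in db/m mice. Igfbp6 stayed below 1.1% in every mouse. The shares of db/db-IF mice carry the length slope too, the transcript of Igfbp5 being the longest of the 6.

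The other genes of the pathway were taken from a list of 22, of which 19 were in the table under these names (Grb10, Igfals and Igf2bp1 were not analysed here) and 14 were tested. Irs2, Irs4, Pappa2, Igf2bp2 and H19 did not exceed 1 FPKM in at least 10 mice and were not tested. Pappa and Insrr also averaged below 1 FPKM over the 31 mice (0.91 and 0.82) but were tested. Igf1r, Irs1 and Igf2bp3 had 2 loci each, and the values given are those of the locus with the higher mean FPKM. In db/db-IF against db/db mice, 0 of 14 were higher and 4 were lower, against 23.7% of all tested loci higher and 27.4% lower. Igf1r, the signalling receptor, averaged 36.2 ± 4.83 FPKM in db/db-IF mice and 43.8 ± 2.26 FPKM in db/db mice (-0.28, adjusted p = 0.00015), and turned to 0.03 with the length trend removed. Irs1, which relays its signal, averaged 7.75 ± 1.55 FPKM in db/db-IF mice and 11.0 ± 1.15 FPKM in db/db mice (-0.47, adjusted p = 2.6e-05). Pappa (-0.33, adjusted p = 0.0081) and Socs2, an inhibitor of growth hormone signalling (-0.33, adjusted p = 0.0086), were the others. Pappa lay near the threshold of 1 FPKM, at 0.73 ± 0.32 FPKM in db/db-IF, 1.18 ± 0.41 in db/db and 0.83 ± 0.22 in db/m mice. The insulin receptor gene Insr averaged 19.1 ± 7.57 FPKM in db/db-IF mice and 19.3 ± 11.5 FPKM in db/db mice, and its log2 difference of 0.05 had an SE of 0.42, larger than the difference seen in Igf1r.

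Between db/db-IF and db/m mice, 1 of the 14 was higher (Htra3, a protease, 0.18, adjusted p = 0.0021) and 8 were lower. These were Igf1r (-0.19), Irs1 (-0.46), Socs2 (-0.34), the growth hormone receptor gene Ghr (-0.51), the IGFBP protease gene Htra1 (-0.30), Igfbp1 (-0.80), and Stc1 (-0.33) and Stc2 (-0.53), whose products block the Pappa proteases. Igfbp1 was low in both groups, averaging 1.02 FPKM in db/db-IF mice (lowest 0) and 2.37 FPKM in db/m mice. Of all tested loci, 26.2% were higher and 29.4% lower in this comparison. Igf1r turned to 0.14 (adjusted p = 0.042) with the length trend removed. Between db/db and db/m mice, Stc1 was lower, at 3.49 ± 0.52 FPKM in db/db mice and 4.62 ± 0.40 FPKM in db/m mice (-0.33, adjusted p = 0.0057), and the other 13 did not pass. The median over the 14 genes was -0.15 between db/db-IF and db/db mice, -0.24 between db/db-IF and db/m mice and -0.12 between db/db and db/m mice. Of these calls in db/db-IF mice, 0 of 4 against db/db and 0 of 9 against db/m mice held with each mouse's slope on transcript length in the fit. That fit called 328 and 451 of all 17139 tested loci in these comparisons. With a length trend removed, 1 (Irs1) and 6 (Htra1, Htra3, Igfbp1, Irs1, Stc1 and Stc2) held. Ghr turned to 0.13 and Irs1 to 0.0026 against db/m mice with the slope in the fit. Stc1 between db/db and db/m mice held under both. Lepr averaged 0.27 FPKM over the 31 mice and was not tested.

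The hippocampi held markers of choroid plexus in amounts that differed widely from mouse to mouse. The summed FPKM of 9 such markers was 4236, 20692 and 31751 (lowest, median, highest) in db/db-IF, 776, 8773 and 26265 in db/db, and 675, 18643 and 33084 in db/m mice, nearly all of it Ttr. Of the 9 markers, 1 (Folr1, 0.65, adjusted p = 0.027) passed between db/db-IF and db/db mice and 0 in the other comparisons, with medians of 0.62 between db/db-IF and db/db mice, 0.06 between db/db-IF and db/m mice and -0.42 between db/db and db/m mice. Of 12 markers of meninges and vascular fibroblasts, Slc6a13 alone was higher in db/db-IF than in db/db mice, and their summed FPKM was 63.5 to 179.8 in db/db-IF, 68.0 to 130.1 in db/db and 84.2 to 134 in db/m mice.

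Markers of the other cell types, the hippocampus's own neurons among them, were present in all groups, the mural cell markers Kcnj8 and Tagln alone averaging under 1 FPKM. In db/db-IF against db/db mice, 27.4% of all tested loci were lower and 23.7% higher, and 5 of 8 endothelial markers were lower (Pecam1, Flt1, Cdh5, Slco1a4 and Tek). Igfbp7, made by vessels, was higher in that comparison, but turned in direction with the slope on transcript length in the fit. Of mural cell markers 2 of 7 were lower, of microglial markers 2 of 6 higher and 1 lower, of astrocyte markers 1 of 8 higher and 3 lower, of oligodendrocyte markers 1 of 6 higher (Mbp), of interneuron markers 3 of 6 higher and 1 lower, and of principal neuron markers 2 of 8 lower (Prox1 and Neurod6). Between db/db and db/m mice, 3 of 6 microglial, 2 of 8 astrocyte and 1 of 6 interneuron markers were lower and 1 of 8 principal neuron markers was higher. Of all tested loci, 2.79% were lower and 2.96% higher there. Against db/m mice, db/db-IF mice had 5 of 8 endothelial, 1 of 7 mural cell, 2 of 6 microglial, 4 of 8 astrocyte and 1 of 12 meningeal markers lower, 1 of 8 principal neuron markers higher, and 3 of 6 interneuron markers higher and 2 lower. The shares of all tested loci in this comparison were 29.4% lower and 26.2% higher. Whether these marker calls depend on transcript length was not tested. The part of these cell types in the values of the 9 genes was tested only through correlations and, for choroid plexus and meninges, through fits that hold the level of the markers.

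**Figure D3:**
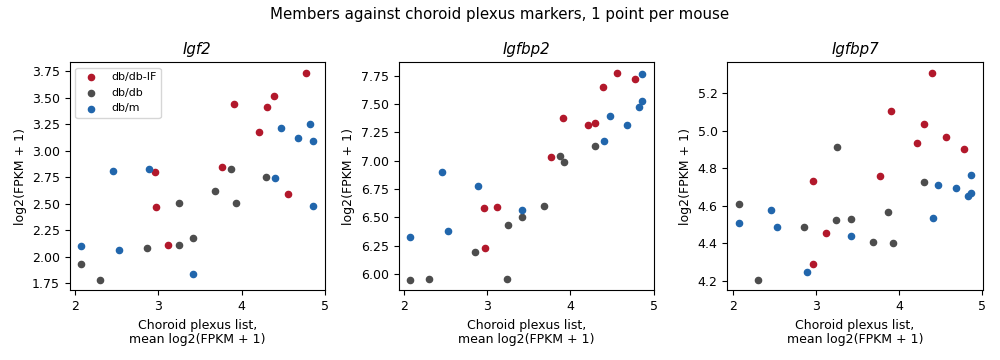
Igf2, Igfbp2 and Igfbp7 (log2(FPKM + 1), vertical axes) against the mean log2(FPKM + 1) of 9 choroid plexus markers (horizontal axes), 1 point per mouse, in db/db-IF (red), db/db (grey) and db/m mice (blue). Igfbp2 follows the markers in each group (r = 0.97 in db/db-IF, 0.90 in db/db and 0.91 in db/m mice), and the other genes do so more loosely.

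Igfbp2 moved with these markers from mouse to mouse. With group means removed, its correlation with the mean log2 level of the choroid plexus list over the 31 mice was r = 0.90 and rho = 0.90 (adjusted p = 0.00081 for both, 2-sided, from 100000 permutations within groups, whose smallest possible p is 1e-05, adjusted over 81 relations), and 0.92 without the 2 mice farthest from the median. Within the libraries of lower and of higher base quality of the sequenced reads r was 0.92 and 0.91. Igf2 gave r = 0.68 and rho = 0.69 (adjusted p = 0.00162 and 0.00135, r = 0.71 without the farthest 2 mice) and Igfbp7 r = 0.53 and rho = 0.57 (adjusted p = 0.0102 and 0.0107, r = 0.59 without the farthest 2 mice), and within the lower and higher quality libraries r was 0.64 and 0.72 for Igf2 and 0.59 and 0.49 for Igfbp7. Igfbp2 (r = 0.73, rho = 0.73, adjusted p = 0.00162 and 0.00135) and Igf2 (r = 0.63, rho = 0.62, adjusted p = 0.00911 and 0.0107) also followed the meninges list, with r of 0.74 and 0.63 without the farthest 2 mice and of 0.69 and 0.84 (Igfbp2) and 0.66 and 0.64 (Igf2) within the lower and higher quality libraries.

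Of the 81 relations between the 9 genes and 9 cell type lists, 7 passed at an adjusted p under 0.05, those 5 and 2 more. The others were Igfbp6 with endothelium (r = 0.52, rho = 0.57, adjusted p = 0.0323 and 0.0208, r = 0.49 without the farthest 2 mice and 0.69 and 0.29 in the lower and higher quality libraries) and Igf1 with principal neurons (r = -0.57, rho = -0.56, adjusted p = 0.0323 and 0.0391, r = -0.46 without the farthest 2 mice and -0.52 and -0.71 in the lower and higher quality libraries). The lists for mural cells, microglia, astrocytes, oligodendrocytes and interneurons gave none. The mice share these libraries across all relations, so the 7 are not independent of one another.

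Fits that hold the marker level of each mouse were chosen after seeing the data. With the choroid plexus level, the 6 genes called between db/db-IF and db/db mice passed in the same direction, Igfbp7 at 0.23 in place of 0.31 (adjusted p = 0.033), and Igf1 passed too, at -0.22 (adjusted p = 0.031). With the meninges level, the same 6 genes passed, Igfbp2 at 0.61 (adjusted p = 0.0013), Igf2 at 0.62 (adjusted p = 0.0024) and Igfbp7 at 0.29 (adjusted p = 0.0077). Between db/db and db/m mice, Igfbp2 was -0.47 with the meninges level (adjusted p = 0.059).

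With the slope in the fit, Igfbp5 alone of the 9 genes passed between db/db and db/m mice (-0.20, adjusted p = 0.025), and 1736 of all 17139 tested loci did. Igf2, Igfbp2 and Igfbp3 stayed higher in db/db-IF than in db/db mice with the length trend removed, at 0.85, 0.58 and 0.24 (adjusted p of 0.0017, 0.024 and 0.023). Against db/m mice, Igf2 (0.52, adjusted p = 0.041) and Igfbp4 (0.30, adjusted p = 0.0081) passed with the trend removed.

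**Figure D4:**
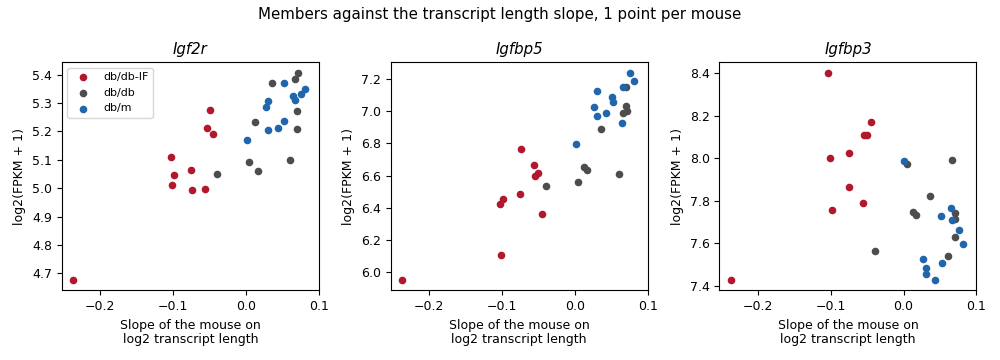
Igf2r, Igfbp5 and Igfbp3 (log2(FPKM + 1), vertical axes) against the slope of each mouse on log2 transcript length (horizontal axes), 1 point per mouse, in db/db-IF (red), db/db (grey) and db/m mice (blue). Every db/db-IF mouse lies left of -0.04 and every db/m mouse right of 0; mouse 7 of the db/db-IF group is the point at -0.24 and has the lowest value of all 3 genes in its group.

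The libraries fell into sets of lower and higher base quality, each holding at least 5 mice of every group. Within the lower set, Igf2 and Igfbp2 differed between db/db-IF and db/db mice by 0.64 and 0.53, within the higher set by 0.72 and 0.85, and none of these passed alone. Igfbp5 differed by -0.27 in the lower set and by -0.46 in the higher set between db/db-IF and db/db mice, and by -0.48 and -0.73 between db/db-IF and db/m mice, where it passed in both sets (adjusted p = 0.0015 and 0.00617). Igf2r differed between db/db-IF and db/db mice by -0.19 (lower set, adjusted p = 0.024) and -0.13 (higher set), Igfbp3 by 0.13 and 0.31, and Igfbp7 by 0.15 and 0.48 (higher set, adjusted p = 0.023). All 6 genes called between db/db-IF and db/db mice thus had 1 direction in both sets. They were called over these same mice, so the sets are not a separate test of them. The db/db-IF mice of both sets also carry the length slope.

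Some genes of the group varied together across the 31 mice once group means were removed, all measured in the same libraries. The slope on transcript length also varied between mice within each group, and its part in these correlations was not tested. Igf2 and Igfbp2 gave r = 0.75, Igfbp2 and Igfbp7 r = 0.65, Igf2r and Igfbp5 r = 0.63, and Igf2 and Igfbp7 r = 0.59. The neighbours Igfbp2 and Igfbp5 gave r = -0.01. Among 11362 other named genes, the most like Igfbp2 were Lbp (r = 0.94), Pcolce (0.93) and Slc13a4 (0.93), and those most like Igf2 were Mycbpap (0.75), Slc13a4 (0.75) and Igfbp2 itself (0.75). Igf2r was most like Frmd4a (0.87), Asxl1 (0.87) and Ep300 (0.87), and Igfbp5 most like Thrap3 (0.86), Hlf (0.84) and Arhgap20 (0.84). The closest genes to Igfbp7 were Bad (0.80), Pltp (0.79) and Csrp2 (0.77), to Igfbp3 Col23a1 (0.78), Gpr101 (0.77) and Dcaf12l2 (0.76), and to Igf1 Atxn7l3b (0.78), Tmed5 (0.77) and Kcnc2 (0.75). Igfbp4 and Igfbp6 had their closest genes at 0.69 (Syt12) and 0.75 (Kcnk3).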

How the data were processed

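Total RNA of the hippocampus of 31 mice was sequenced on a BGI platform. The authors trimmed reads with Trimmomatic 0.38, mapped them with HISAT2 to GRCm38.p6 and assembled, merged and quantified transcripts with StringTie 1.3.4d, per their methods and the labels. The deposited values are FPKM per merged locus, per kilobase of transcript and scaled to the mapped fragments of each mouse. FPKM keeps no read counts, so the depth behind each value is unknown and no counting interval is given. Groups were taken from the sample titles, whose counts differ from a figure legend of the paper as stated above. No 2 columns held identical values. Replicate numbers name mice and did not pair them.

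Values were analysed as log2(FPKM + 1) over 17139 loci above 1 FPKM in at least 10 mice, with limma 3.58.1 (R 4.3.3, trend on mean level, 3 group means, two-sided, Benjamini-Hochberg over all tested loci, threshold 0.05). The test was checked on simulated data. The pseudocount understates the change of low genes. Correlations used deviations from group means. Transcript lengths came from GENCODE M21, coordinates and promoter windows from RefSeq on GRCm38.p6. The read sets of lower and higher base quality come from the study's sequencing summary. The text names the 9 genes, a pathway list, cell type lists and, per gene, the 3 genes most correlated with it. The genes and lists were chosen with earlier results of these data known. Alternatives were another pseudocount, filter, scaling, test, sample set, a replicate block, read sets, transcript length, the sum of a name's loci, marker levels (added later) and each mouse left out in turn. The labels give an age of 3 months, and the methods give an older age at the start of fasting.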

Additional observations from a re-analysis of the deposited data

Results flagged for a closer look

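Among 46 groups of mice examined for the 9 genes and the tested pathway genes, 5 had 1 mouse far from the rest, where chance alone would give about 1 in 20. These were the groups of 10 db/db-IF and 10 db/db mice, and the 11 db/m mice were not examined in this way, since groups of more than 10 are not tested. Igf2r was 24.6 FPKM in db/db-IF mouse 7, with the next lowest mouse at 30.9 FPKM. Insr was 2.02 FPKM in db/db-IF mouse 9, against 9.67 FPKM in the next lowest. Igf2bp3, which encodes an RNA-binding protein of Igf2 messages, was 6.22 FPKM in the same mouse, against 11.7 FPKM in the next lowest. In db/db mice, Igf2bp3 was 8.002 FPKM in mouse 4 (next lowest 11.8 FPKM) and Ghr was 2.49 FPKM in mouse 5 (next lowest 10.3 FPKM).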

How the results depend on the processing

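For the count of the 9 genes called, 14 alternatives were run beside leaving out each mouse and 2 marker levels added after seeing the data. Between db/db-IF and db/db mice (6 called) the count was 1 in the lower quality libraries alone, 2 in the higher quality libraries alone and 0 with the slope on transcript length. Igf2r and Igfbp3 were not called with only these groups in the fit, nor Igf2r with quantile normalization or the replicate block. With the length trend removed, Igfbp5 and Igfbp7 were not called and Igf2r passed in the other direction. Igfbp6 was called too with equal medians, and Igf1 with a filter of FPKM above 1 in all mice or the choroid plexus level. Between db/db and db/m mice (0 called) it was 2 with only these groups in the fit, 1 with the slope, 1 with the length trend removed and 1 with the choroid plexus level. Between db/db-IF and db/m mice (4 called) it was 1 in the higher quality libraries alone and 1 with the slope. Igfbp7 was not called there in the lower quality libraries or with the length trend removed. Igfbp4 was called too with quantile normalization or the trend removed, and Igf2 with the trend removed. The read sets hold fewer mice, and for the other settings the cause was not tested. Leaving out each mouse in turn gave 5 to 7, 0 to 0 and 4 to 5 called between db/db-IF and db/db, db/db and db/m, and db/db-IF and db/m mice.

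Directions turned as follows, on the log2 scale. Igfbp4, between db/db-IF and db/db mice, was 0.017 with equal medians, 0.053 with quantile normalization, 0.0032 in the lower quality libraries and 0.10 with the length trend removed. Igfbp2 was -0.042 between db/db-IF and db/m mice, and between db/db and db/m mice Igfbp7 was 0.089, in the lower quality libraries. Igf1 was -0.024 between db/db and db/m mice in the higher quality libraries, and Igfbp7 was 0.031 there with the choroid plexus level in the fit. With the slope, Igfbp6 was -0.019, Igf2r 0.15, Igfbp5 0.13 and Igfbp7 -0.088 between db/db-IF and db/db mice. The slope gave, between db/db-IF and db/m mice, Igf2 -0.13, Igfbp4 -0.17, Ghr 0.13, Igfbp6 -0.12, Igf2r 0.11, Igfbp2 -0.20, Irs1 0.0026 and Igfbp7 -0.16. With the length trend removed, Igf1 was 0.080, Igf1r 0.026 and Igf2r 0.13 between db/db-IF and db/db mice, and Igf1 0.15, Igf1r 0.14, Igf2r 0.092 and Igfbp6 -0.0030 between db/db-IF and db/m mice. Without single mice Igfbp4 ranged from -0.067 to 0.031 between db/db-IF and db/db mice, and Igfbp7 from -0.075 to 0.0033 between db/db and db/m mice.

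Mice with the same replicate number did not deviate together (median correlations -0.06, -0.02 and 0.02, and 0, 2 and 0 pairs over 0.1). With the replicate block, 5, 0 and 4 of the 9 genes were called between db/db-IF and db/db, db/db and db/m, and db/db-IF and db/m mice (Igf2r was not called in the first, adjusted p = 0.074), and 472 loci in place of 985 passed between db/db and db/m mice. That last count was 1840 with only these groups in the fit, 272 in the lower and 1 in the higher quality libraries, and 1736 with the slope. For db/db-IF and db/db mice, 8751 loci passed, but 328 with the slope and 3484 in the higher quality libraries. For db/db-IF and db/m mice, 9532 loci passed, but 451 with the slope, 3893 in the higher quality libraries and 5523 of 12298 with the length trend removed. Only FPKM values were used, so the depth behind low genes such as Igfbp6, Igf2 and Igf1 is unknown.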
